A study of Bactrocera dorsalis with 6 samples.

Results

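The unigenes of eggs and larvae only are the assembled genes of the oriental fruit fly, Bactrocera dorsalis, that were well expressed in the egg and larval libraries and low or absent in pupae and adults. They were chosen from their FPKM, a fragment count scaled by transcript length and library size, in either of 2 ways that use bounds of the FlyBase expression categories. A unigene was taken if it had 11 or more in eggs and in larvae and less than 4 in each of the 4 other libraries, or 26 or more in eggs and in larvae and less than 11 in each of the others. The rule found 50 of 10799 unigenes (0.463%). Of these, 42 met the first pair of bounds, 31 met the second pair and 23 met both. Because these same values chose the 50 unigenes, their levels are a description and support no test.

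Whole insects of a laboratory colony reared on liquid artificial diet were sampled daily, RNA was extracted from each day's collection, and the extractions of a stage were pooled in equal amounts. The 6 pools held eggs from fresh laying to complete hatch, larvae collected through their feeding life, pupae, adult males before mating, adult females before mating, and females after mating. Each pool gave 1 library, so no difference between stages has a replicate check and no p-value was computed. The intervals given below are exact Poisson intervals at the 95% level and cover counting error alone.

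In flies the embryo is built inside the egg from maternal RNA and then from its own genome, and near hatching it already forms the gut, the cuticle and the other organs with which the larva feeds and grows. In the pupa most larval tissues are broken down and replaced by adult ones. A gene used in eggs and larvae alone thus belongs to the part of life before metamorphosis. In whole insects, fewer cells of a type and less RNA per cell cannot be told apart.

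The depth of the libraries was 7386960 to 9905262 expected counts. The egg label was checked with sisA and runt, early embryonic genes of sex determination in Drosophila melanogaster. The sisA unigene comp27850_c0 had an FPKM of 34.1 in eggs and 0.29 in larvae, then 0.17 in pupae, 0 in the male library, 0 in the library labelled female, and 18.1 for mated females. The runt unigene comp29343_c0 had 14.97 in eggs and 9.96 in mated females, with at most 0.14 in the other libraries. These unigenes were thus high in eggs and mated females and near 0 elsewhere. The other runt unigene, comp9454_c0, was low throughout, with 0.27 in eggs and its highest value, 1.43, in pupae. The pool of unmated females goes by the name of its label, the library labelled female, because its isoform shares of doublesex, the gene whose splicing differs between the sexes, lay 21.8 percentage points from those of males and 85.4 points from those of mated females. Across all unigenes its Spearman coefficient with males was 0.991. Without this library the rule took 51 unigenes. The same 50 are among them by definition, since leaving out a library can only add unigenes. The similar male library stayed in the rule, so the number cannot show whether the set depends on the label.

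The 50 unigenes held 1.04% of all expected counts in larvae (77652 counts) and 0.526% in eggs (38877 counts). In the 4 other libraries they held between 0.00872% and 0.00934%, with 713 to 915 counts in each. Their median FPKM was 43.3 in eggs and 85.4 in larvae, then 0.48 in pupae, 0.185 in the male library, 0.255 in the library labelled female, and 0.135 for mated females. Every one of the 50 had at least 38 counts in larvae and 61 in eggs, and the total per unigene lay between 169 and 12159 counts. A few unigenes carried much of the signal, since the 5 with the most counts held 46.9% of the counts of the 50 in larvae and 43.5% in eggs.

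**Figure D1:**
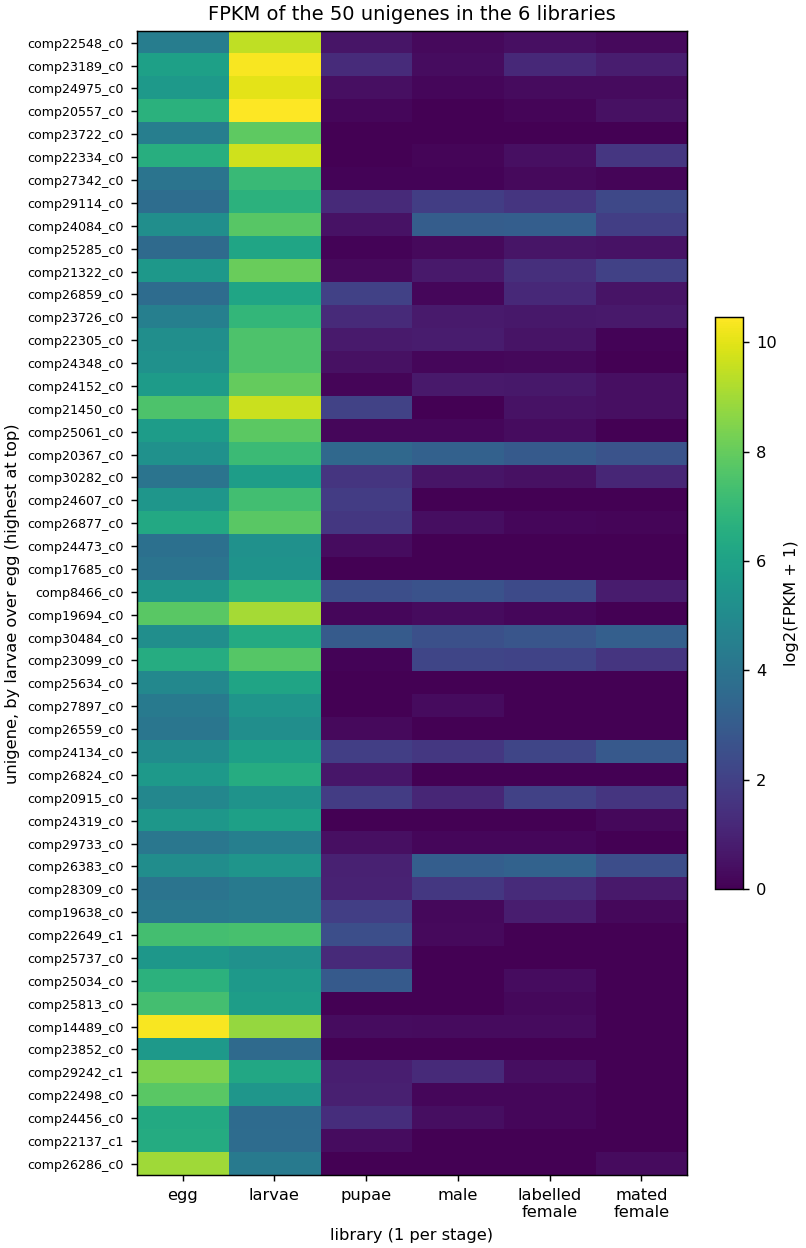
FPKM of the 50 unigenes of eggs and larvae only (rows, ordered by larvae over egg) in the 6 libraries (columns), coloured by log2(FPKM + 1) with 1 library per stage. In each row the egg and larval cells are brighter than the other 4, as the rule requires, though cells near the bounds are dim. The brightest cells are those of comp20557_c0 in larvae and comp14489_c0 in eggs.

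Most of the 50 unigenes were higher in larvae than in eggs. Larval FPKM exceeded egg FPKM in 40 of them and egg FPKM exceeded larval FPKM in 10. On the log2(FPKM + 1) scale the median of larvae over egg was 1.28, with a range between -4.69 and 5.03, beside -0.03 over the 3626 unigenes with 11 or more in both libraries. At least a 2-fold higher value of FPKM + 1 in larvae was seen in 31 of the 50 (62%), against 18.4% of the 3626. At least a 2-fold higher value in eggs was seen in 9 of the 50, against 15.8% of the 3626. The other 10 were within 2-fold. These ratios lean on the TMM factors of the authors, the trimmed-mean scaling that sets the libraries against each other, which were 0.868 for larvae and 1.30 for eggs. Without the factors the same 50 split into 33 higher in larvae and 17 higher in eggs, so the share higher in larvae was 66% instead of 80%. At least 2-fold higher in larvae were then 21 of the 50 instead of 31, and 9 remained at least 2-fold higher in eggs. The median log2 ratio over the unigenes with 11 or more in both libraries moved to -0.47.

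**Figure D2:**
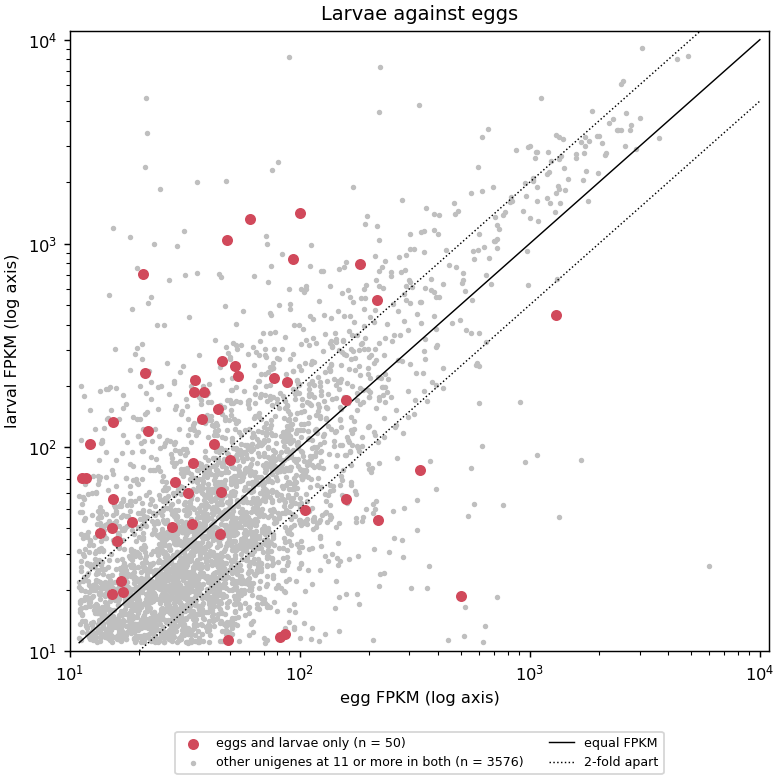
Larval FPKM (vertical) against egg FPKM (horizontal), both on log axes, for the 50 unigenes of eggs and larvae only (red) and the 3576 other unigenes with 11 or more in both libraries (grey), with lines of equal FPKM and of a 2-fold difference. Of the 50 red points, 31 lie above the upper 2-fold line and 9 below the lower one.

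The highest larval levels of the set belonged to 5 unigenes that were all far lower in eggs. The unigene comp20557_c0, whose best D. melanogaster pair is FBgn0036949, had an FPKM of 1405 in larvae and 100.2 in eggs. In the remaining libraries it had 0.13 in pupae, 0 in the male library, 0.11 in the library labelled female, and 0.37 for mated females. Behind these values stood 9907 counts in larvae (interval 9713 to 10104), 1044 in eggs (982 to 1109) and 6 in the 4 other libraries together. The unigene comp23189_c0 had 60.9 in eggs and 1320.4 in larvae, then 1.44 in pupae, 0.28 in the male library, 1.29 in the library labelled female, and 0.79 for mated females. Both exceeded 1000 in larvae and had at most 1.44 outside eggs and larvae.

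The unigene comp24975_c0, a match of FBgn0002569, had 1041 in larvae and 48.3 in eggs and at most 0.33 in the other libraries. The unigene comp22334_c0 had 843 in larvae and 93.7 in eggs, and its highest value elsewhere was 2.18 in mated females. The unigene comp21450_c0 had 795 in larvae and 182 in eggs, with 3.18 in pupae and at most 0.43 in an adult library. The first of these was near 0 in pupae and adults alike, whereas the highest residue of the other two lay in mated females and in pupae.

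The largest ratio of the set was that of comp22548_c0, which had 708 in larvae and 20.8 in eggs, a 34.1-fold ratio of FPKM (5.03 on the log2 scale of FPKM + 1). It rested on 4847 counts in larvae and 210 in eggs (interval 183 to 240). Next came comp23189_c0 (log2 4.42) and comp24975_c0 (log2 4.40). In all, 7 of the 50 were at least 8-fold higher in larvae on the scale of FPKM + 1, against 2.1% of the 3626. Other unigenes at least 2-fold higher in larvae have a D. melanogaster pair. Apart from those described further on with their signal in pupae or adults, these were comp23722_c0 (FBgn0031000), comp21322_c0 (FBgn0040950), comp23726_c0 (FBgn0039453), comp25061_c0 (FBgn0037224), comp26877_c0 (FBgn0037204), comp24473_c0 (FBgn0004781) and comp19694_c0 (FBgn0038646), with larval FPKM between 37.9 and 527 and egg FPKM between 13.5 and 217. Of these, comp19694_c0 had 527 in larvae and 217 in eggs and was the fifth highest of the set in eggs.

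A smaller group was highest in eggs. The unigene comp14489_c0 had an FPKM of 443.8 in larvae and 1296 in eggs, with 1425 counts in larvae (interval 1352 to 1501) and 6147 in eggs (5994 to 6303). It had 0.28 in pupae, 0.22 in the male library, 0.25 in the library labelled female, and 0 for mated females. The annotation of this short unigene holds a predicted signal peptide, the leader that sends a protein into the secretory route, and no Swiss-Prot match or Pfam domain. It was the highest egg transcript of the set and still one of the higher larval ones.

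The unigene comp26286_c0, paired with FBgn0052271, had 18.6 in larvae and 505 in eggs, the lowest larvae-over-egg ratio of the 50 (log2 -4.69). Its counts were 106 in larvae (interval 86.8 to 128) and 4242 in eggs (4115 to 4372), and 2 in the 4 other libraries together. The unigene comp29242_c1 had 77.0 in larvae and 332 in eggs. The unigene comp22498_c0, paired with FBgn0036639, had 43.8 in larvae and 219 in eggs. None of these 3 exceeded 1.36 in a pupal or adult library. The other low ratios were those of comp22137_c1, with 12.1 in larvae and 86.7 in eggs (log2 -2.74), and of comp24456_c0, with 11.7 in larvae and 81.7 in eggs (log2 -2.70). Both sat close to the lower bound in larvae.

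Few of the 50 were equally high in both stages. An FPKM of 100 or more was reached by 24 unigenes in larvae and by 10 in eggs, and by 5 in both. The most even of them was comp22649_c1, with 171 in larvae and 159 in eggs, which also had 4.63 in pupae, 0.21 in males and 0 in both female libraries. The paired unigenes comp24319_c0 (FBgn0052237), with 60.5 in larvae and 45.3 in eggs, and comp20915_c0 (FBgn0039298), with 40.8 in larvae and 27.8 in eggs, were within 2-fold as well. Within 2-fold lay also the 3 unigenes that carry a named detoxification or protease function, described next.

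A few of the 50 unigenes are named by the lists of the study. The unigene comp26383_c0 is a glutathione S-transferase, an enzyme that joins glutathione to reactive compounds, with both domains of the family. It had an FPKM of 33.9 in eggs and 42.2 in larvae, then 0.96 in pupae, 7.82 in the male library, 8.89 in the library labelled female, and 4.53 for mated females. It was thus lowest in pupae and had a clear low level in every adult library. The unigene comp24134_c0 is a UDP-glucuronosyltransferase, an enzyme that adds sugars to small lipophilic compounds. It had 32.8 in eggs and 59.6 in larvae, then 2.85 in pupae, 2.25 in the male library, 3.52 in the library labelled female, and 6.64 for mated females.

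The unigene comp28309_c0 is paired with CG8563 (FBgn0035777), annotated with metallocarboxypeptidase activity, the removal of the last residue of a protein chain, and it belongs to the list of D. melanogaster genes under CncC and Keap1, the transcription factor and its inhibitor that govern detoxification genes. It had 15.3 in eggs and 19.0 in larvae, then 1 in pupae, 2.21 in the male library, 1.46 in the library labelled female, and 0.66 for mated females. These 3 unigenes were the only ones of the set on the gene family and pathway lists. They were 1 of 34 glutathione S-transferases (2.94%), 1 of 23 UDP-glucuronosyltransferases (4.35%) and 1 of 141 CncC/Keap1 unigenes (0.709%). Of 92 cytochrome P450 unigenes 0 were among the 50, and none of those in the lists of sex determination and neurogenesis were. Over all unigenes the rule took 0.463%, so counts of 0 or 1 in lists of these sizes cannot be read as a trait of the set. Leaving out unigenes listed at 0 in every library, 10 of 33 glutathione S-transferases (30.3%) had their highest value in larvae and 2 (6.06%) in eggs. Of the UDP-glucuronosyltransferases, 11 of 21 (52.4%) had it in larvae and 4 (19.0%) in eggs. Over the 9596 unigenes of the series left on the same basis, these shares were 22.8% for larvae and 27.2% for eggs. The 1203 unigenes left out have no counts in eggs, so leaving them out raises the egg share.

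For most of the set no function can be given. In the rows of the annotation lists used here, 20 of the 50 had a single D. melanogaster pair, 4 had matches to several unigenes or genes and 23 had no entry. The lists used here are incomplete, and 26.3% of all unigenes had a pair in them. Keyword lists for cuticle, proteases, transcription factors and transporters held 0 of the 50, but those rows cover 483 unigenes and a single one of the 50.

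The match FBgn0002569 recurred. In the rows used here it was shared by 6 unigenes, and 3 of them were among the 50. Besides comp24975_c0 these were comp27342_c0, with 133 in larvae and 15.4 in eggs, and comp25285_c0, with 70.8 in larvae and 11.3 in eggs, which matches 10 genes in all. All 3 had an FPKM at least 6.26-fold higher in larvae than in eggs and at most 0.52 in any pupal or adult library. The other 3 matches were highest in pupae or adults. The unigene comp27798_c0 had 0.16 in eggs and 16.5 in larvae, then 64.0 in pupae, 393 in the male library, 349 in the library labelled female, and 129 for mated females. The unigene comp26339_c0 likewise had its highest values in adult libraries, 66.9 in males and 68.4 in the library labelled female. The unigene comp25368_c0 was highest in pupae with 123. Reads of such related unigenes may be shared between copies by the counting, so single values are uncertain.

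Outside eggs and larvae the 50 unigenes left little signal. In 4 of them (comp23722_c0, comp17685_c0, comp25634_c0 and comp23852_c0) the expected count was 0 in all 4 other libraries. Any of the 3626 unigenes with such counts meets the rule, so the share of 0.11% of the 3626 is these same 4 and no separate background. A count of 0 allows up to 3 counts as a one-sided limit, so absence cannot be stated. The unigene comp23722_c0, paired with FBgn0031000, was the highest of them in larvae, with 231 in larvae and 21.2 in eggs. The unigene comp17685_c0 had the fewest counts in total, with 108 in larvae and 61 in eggs. The highest value in a pupal or adult library was below 1 in 25 of the 50, between 1 and 4 in 17 and at or above 4 in 8.

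Residual signal was found in pupae for some unigenes and in adults for others. The highest of the 4 other libraries was pupae for 23 unigenes, males for 8, the library labelled female for 7 and mated females for 8. An FPKM of 1 or more was reached in pupae with all adult libraries below 1 by 9 unigenes, in an adult library with pupae below 1 by 6 and in both by 10. The unigene comp25034_c0 is of the first kind, with 106 in eggs and 49.4 in larvae, then 6.81 in pupae, 0 in the male library, 0.26 in the library labelled female, and 0 for mated females. The unigene comp24607_c0, paired with FBgn0037227, had 44.3 in eggs, 154 in larvae and 2.61 in pupae and was at 0 in all adult libraries.

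Of the second kind are comp24084_c0 (FBgn0264488), with 34.9 in eggs and 214 in larvae, then 0.44 in pupae, 7.49 in the male library, 7.69 in the library labelled female, and 2.80 for mated females, and comp23099_c0 (FBgn0036951), with 88.0 in eggs and 208 in larvae, then 0.07 in pupae, 3.61 in the male library, 3.32 in the library labelled female, and 2.06 for mated females. With comp26383_c0 they share a dip in pupae between larvae and adults. The unigene comp8466_c0 (FBgn0030394) had 42.3 in eggs and 104 in larvae, then 4.63 in pupae, 5.28 in the male library, 4.06 in the library labelled female, and 0.72 for mated females. An FPKM of 4 or more in all 4 other libraries was found in comp20367_c0 (FBgn0031307), with 37.7 in eggs and 138 in larvae, then 10.6 in pupae, 8.37 in the male library, 6.82 in the library labelled female, and 5.33 for mated females, and in comp30484_c0 (FBgn0041210), with 34.5 in eggs, 83.7 in larvae and between 4.95 and 7.88 in the others.

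**Figure D3:**
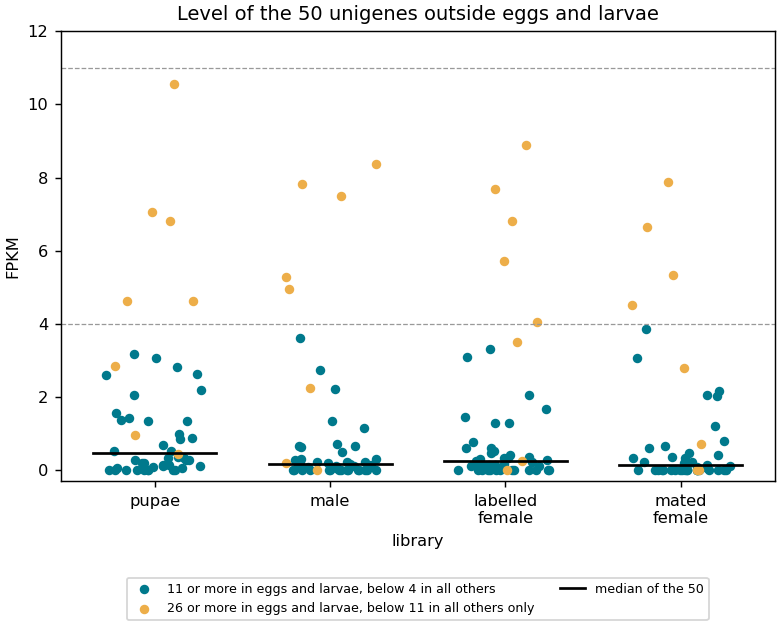
FPKM of the 50 unigenes in the 4 libraries outside eggs and larvae, 1 point per unigene and library, with black lines at the median and dashed lines at the bounds of 4 and 11. Teal points met the bounds of 11 and 4, gold points met those of 26 and 11 alone, and all medians lie below 0.5.

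The unigenes of the set were short. Lengths were recovered from counts and FPKM and enter the rule as the divisor of FPKM, so they are given as a description. They had a median of 945 bp and a range of 382 to 2844 bp, beside a median of 2030 bp over the 3626 unigenes with 11 or more in both libraries and 1808 bp over the 9596 unigenes with a recoverable length. In the set 28 of 50 (56%) were below 1000 bp, against 13.1% of the 3626. The sets that the same rule gives for larvae and pupae and for eggs and mated females were longer, with medians of 2011.9 bp and 2115 bp, while those of the larval library alone and of the egg library alone had medians of 994 bp and 836 bp. A single assembled isoform was held by 33 of the 50 (66%), against 42.7% of the 3626 and 59.6% of all unigenes.

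Most unigenes with several isoforms used the same leading isoform in both stages, but some did not. The 17 such unigenes held 47 isoforms, of which 13 met the rule on their own, and in 7 of the 17 no isoform did. Failing the rule need not mean different use, since the signal of a unigene is split among its isoforms. In comp28309_c0 no isoform met it, yet its leading isoform held 68.7% in eggs and 67.3% in larvae. The isoform FPKM are also on another scale than the unigene FPKM, even for unigenes of 1 isoform. The 1 isoform of comp25285_c0 failed with 10.8 in eggs, against 11.3 for the unigene. That of comp29114_c0 failed with 4.25 in mated females, against 3.86 for the unigene. Counts of isoforms that met the rule are thus not on the scale of the unigene rule. With comp25285_c0, comp24456_c0 and comp29114_c0, each of 1 isoform, 10 unigenes of the set had no isoform that met the rule. Among the 17, the leading isoform was the same in larvae and eggs in 12 and differed in 5. The unigene comp26824_c0 (FBgn0039444) showed the largest difference, with 95 percentage points between its isoform shares in larvae and in eggs. Its isoform seq1 had 31.3 in larvae and 1.16 in eggs, and its isoform seq3 had 0.77 in larvae and 27.0 in eggs. The unigene comp23852_c0 did the same, with 13.4 in larvae and 6.65 in eggs for seq1 and 0.38 in larvae and 39.6 in eggs for seq2.

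In comp26859_c0, which matches FBgn0052570 and FBgn0052574, the isoform seq4 had 41.6 in larvae and 0 in eggs. In comp23189_c0 the isoform seq1 had 644 in larvae and 2.20 in eggs, whereas seq3 had 389 in larvae and 49.9 in eggs. In comp24975_c0, the unigene with the most isoforms (6), 3 isoforms were at 0 in eggs and had 130.3, 239 and 56.3 in larvae. These unigenes were therefore present in both stages as unigenes but partly through different assembled transcripts. RSEM divides reads among isoforms that share sequence, so isoform values are less certain than those of the unigene.

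**Figure D4:**
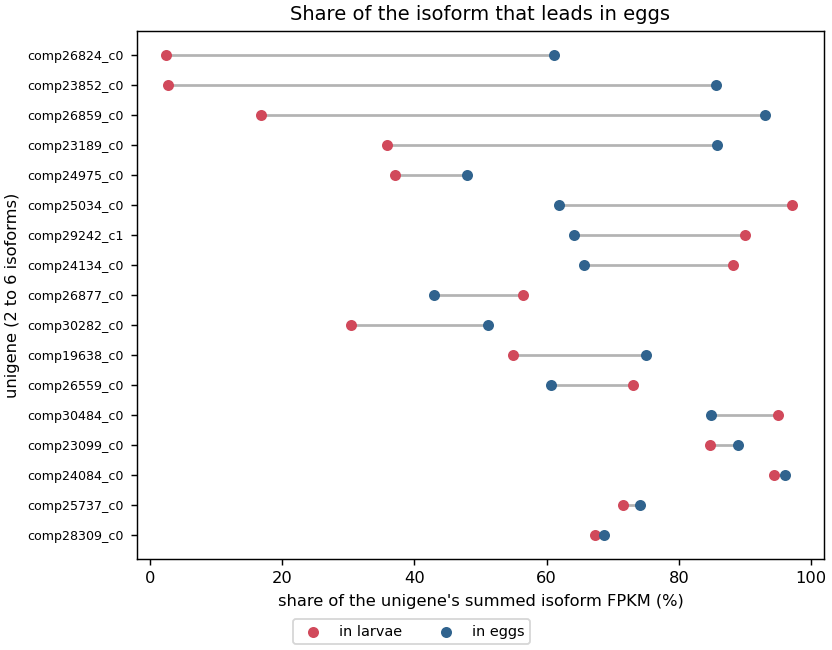
Share of the isoform that leads in eggs, in percent of the summed isoform FPKM of its unigene, in larvae (red) and in eggs (blue) for the 17 unigenes with 2 to 6 isoforms. The red point lies far to the left of the blue one in comp26824_c0, comp23852_c0, comp26859_c0 and comp23189_c0, whose leading isoform differs between the stages.

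Applied to the other pairs of libraries, the same bounds gave 215 unigenes for eggs and mated females, 66 for larvae and pupae and 50 for males and the library labelled female. They gave 7 for larvae and mated females, 5 for eggs and pupae, 2 for pupae and mated females and 0 for the other 8 pairs. For a single library they gave 136 in larvae and 29 in eggs. The 1203 unigenes listed at an FPKM of 0 in every library all have counts, but none in eggs, so that the numbers for sets without eggs may be too low. Eggs thus shared fewer such unigenes with the larvae that hatch from them than with the mated females that lay them.

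**Figure D5:**
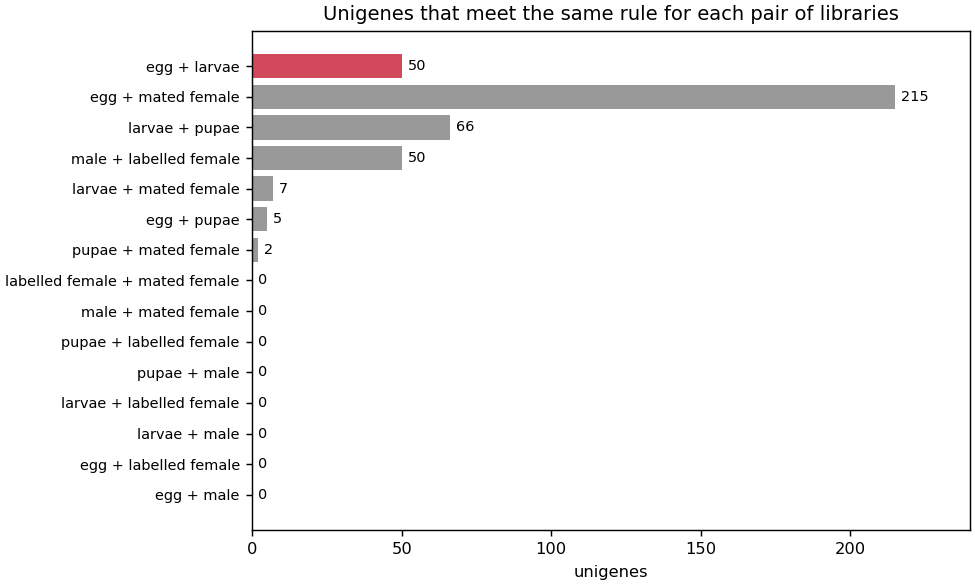
Number of unigenes (horizontal axis) that meet the same bounds for each of the 15 pairs of libraries, with eggs and larvae in red. Eggs and larvae hold 50, against 215 for eggs and mated females and 66 for larvae and pupae.

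The values near the bounds show how sharp the edge of the set is. Just inside were comp25285_c0 (11.3 in eggs), comp23852_c0 (11.3 in larvae) and comp24456_c0 (11.7 in larvae), and comp24653_c0 (56.4 in larvae, 10.7 in eggs), comp20540_c0 (46.8 in larvae, 10.7 in eggs) and comp21369_c0 (18.2 in larvae, 10.4 in eggs) lay just outside. The bound of 4 decides only for unigenes below 26 in eggs or in larvae. Among these, comp29114_c0 (3.86 in mated females), comp26859_c0 (3.06 in pupae) and comp19638_c0 (2.83 in pupae) were nearest inside. Nearest outside were comp22660_c0 (4 in pupae), comp23815_c0 (4.24 in pupae) and comp24548_c0 (4.73 in the library labelled female). The unigenes on either side of these bounds thus differed by less than 2 FPKM. At the bound of 11, comp28628_c0 (14.0 in pupae), comp28199_c1 (14.1 in mated females) and comp30272_c0 (16.1 in mated females) were the nearest unigenes left out. At the bound of 26, comp30183_c0 (63.6 in larvae, 25.9 in eggs), comp25575_c0 (24.1 in larvae, 23.4 in eggs) and comp28048_c2 (3483 in larvae, 21.8 in eggs) were left out. Of these, comp28048_c2 had a larval level above any of the 50 and between 8.50 and 9.54 in each adult library.

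Of the 4 unigenes that share a Trinity component with one of the 50, none met the rule. The rule took 0.463% of all unigenes, so 4 are too few to show whether partners go together. The unigene comp22137_c0 had 4376 in larvae and 2626 in eggs and at least 1839 in each other library, while its partner comp22137_c1 was at most 0.28 outside eggs and larvae.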

How the data were processed

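RNA-seq libraries of 6 life stages, 1 per stage, were sequenced from pooled daily extractions. After quality filtering, the authors built transcripts with Trinity, retained those predicted to code for protein, mapped the reads of each library with Bowtie 0.12.7 and estimated abundance with RSEM 1.2.0, as named in the processing notes of the submitters. They deposited expected counts, not normalized, and FPKM scaled with TMM factors, each for 10799 unigenes and 20666 isoforms. The number of columns that could not be assigned to a stage was 0. The assembly was made without a genome, and the unigene identifiers are not among the names of the reference list, so names come from the annotation lists of the study.

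The rule for the 50 unigenes was applied to the deposited FPKM. Ratios used log2(FPKM + 1). TMM factors and lengths were recovered from the ratio of deposited counts to deposited FPKM. The recovery of the library scaling was tested on simulated data, and that of the lengths was not tested. For 1203 unigenes the FPKM is listed as 0 in every library although they have counts. None of these counts are in eggs, so none of these unigenes could belong to the set. Depth was 7386960 to 9905262 counts, and a count of 0 allows up to 3 (one-sided limit at the 95% level). Counts were rounded to whole numbers for the intervals.

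The members and lists were chosen with earlier results of these data known. Named were the unigenes with an annotation entry, the 5 highest in larvae and in eggs, the 3 largest and the 3 smallest ratios, and the 3 nearest each bound. The unigenes of the paragraphs on residual signal, isoforms, component partners and FBgn0002569 that fall outside this were chosen after their values were seen.

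Alternatives were FPKM without TMM factors, median-of-ratios size factors, FPKM summed over isoforms, rounded FPKM, a minimum of 100 counts, thinning to the smallest library, a pseudocount of 0.1, other bounds, a fold other than 2 and each of the 4 other libraries left out. Leaving out the library labelled female for ratios and for counts of 0 was added after seeing the data. Calculations were run in Python 3.11.15 (scipy 1.17.1, pandas 2.3.3, numpy 2.4.6) and plots were drawn with matplotlib 3.10.9.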

Additional observations from a re-analysis of the deposited data

How the results depend on the processing

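The number of unigenes in the set depended most on the bounds and on pupae. It was 23 with at least 26 against below 4, 31 with at least 26 against below 11 alone and 93 with at least 11 against below 11. Without the pupal library the rule took 100 unigenes, with 50 gained. It lay between 42 and 66 under the other alternatives tried, with 60 without TMM factors (46 shared with the 50). The median log2 ratio of larvae over egg was 0.71 without TMM factors, on the set so chosen. The log2 ratio of 7 unigenes then turned from higher in larvae to higher in eggs, at -0.38 for comp19638_c0, -0.022 for comp20915_c0, -0.47 for comp22649_c1, -0.16 for comp24319_c0, -0.26 for comp26383_c0, -0.25 for comp28309_c0 and -0.17 for comp29733_c0. Over all unigenes the median log2 ratio was then -0.18, against 0 with the factors. The 1203 unigenes listed at an FPKM of 0 in every library enter both medians with a ratio of 0. The median of 0 therefore does not show that the factors balance larvae against eggs. Allowing at most 3 counts in each other library in place of 0 gave 18 unigenes instead of 4. No paired analysis was possible because each stage has 1 library. For the same reason the spread between insects is unknown, and a count of 0 limits what can be said of pupae and adults to a one-sided limit of 3 counts per library.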

Other observations

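The pattern of eggs and larvae was also found among isoforms of unigenes that do not show it. Of 20666 isoforms, 62 met the same bounds on the scale of the isoform FPKM, and 43 of these belong to the 50 unigenes. The other 19 belong to 17 unigenes, and all 17 had an FPKM of 11 or more in a pupal or adult library. The isoform comp26019_c0_seq9 had 108 in eggs and 144.3 in larvae, then 0 in pupae, 0.60 in the male library, 0.31 in the library labelled female, and 0.14 for mated females, while its unigene had 42.5 in pupae and 64.8 in mated females. The isoform comp29449_c0_seq3 had 3013 in larvae and 69.1 in eggs and at most 1.43 in the other libraries, while its unigene had 67.1 in males and 76.0 in the library labelled female.

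Both detoxification families of the set have such an isoform. The isoform comp27284_c0_seq1 of a glutathione S-transferase unigene had 109 in larvae and 27.9 in eggs and at most 1.58 elsewhere, while the unigene had 28.9 in males and 29.3 in the library labelled female. The isoform comp30185_c0_seq3 of a UDP-glucuronosyltransferase unigene had 52.1 in larvae and 40.3 in eggs and at most 6.30 elsewhere, while the unigene had 42.0 in males and 34.6 in the library labelled female. These isoforms were chosen after their values were seen.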
